A study of Mus musculus with 7 samples.

Results

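The 10 genes described here encode G protein-coupled receptors through which gut hormones, glucagon, fatty acids and neurotransmitters reach the pancreatic β-cell: *Glp1r*, *Gipr*, *Gcgr*, *Ffar1*, *Gpr119*, *Adra2a*, *Chrm3*, *Sstr3*, *Galr1* and *Ptger3*. They were taken by symbol from a table of 35013 genes, and all 10 passed the filter on low counts in each comparison. RNA was sequenced from β-cells sorted from islets of 7 mice, 1 library per mouse. There were 2 libraries from KO_db/db mice, in which Cre driven by the rat insulin promoter acts on 2 floxed *Aldh1a3* alleles in a *Lepr db/db* background that also carries a tdTomato reporter. Another 2 were from *db/db* mice, with the same Cre, 1 floxed *Aldh1a3* allele, tdTomato and *Lepr db/db*, and 3 were from lean *db/+* mice with the same Cre, 1 floxed allele, tdTomato and *Lepr db/+*. Both control groups thus carry the Cre and are heterozygous for the floxed allele, so no group is a wild type. The *db* allele inactivates the leptin receptor, and *db/db* mice are obese and diabetic. The study's mice were generally 16 to 20 weeks old, of both sexes, and were fasted for 16 h before islets were isolated; the sex and age of each animal are not in the labels.

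Glucagon-like peptide 1 (GLP-1) and glucose-dependent insulinotropic polypeptide (GIP) are the incretins, gut hormones that strengthen glucose-stimulated insulin secretion. Their receptors, and that for glucagon, couple to Gs, which raises cyclic AMP (cAMP). The free fatty acid receptor FFAR1 and the muscarinic receptor M3 act through Gq and calcium. The α2A-adrenergic, somatostatin, galanin and prostaglandin EP3 receptors couple to Gi/o, which lowers cAMP and restrains secretion.

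The libraries held 27496645 to 35852785 estimated counts, so the detection floor of 3 counts lay between 0.0717 and 0.123 CPM (counts relative to the library total, scaled between libraries by the trimmed mean of M values, TMM). *Aldh1a3*, the targeted gene, stood at 4.97 and 7.89 CPM in KO_db/db, 98.5 and 194 CPM in *db/db*, and 0.073 to 0.589 CPM in *db/+*. It was lower in KO_db/db than in *db/db* (log2 fold change −4.50 ± 0.43 SE, edgeR adjusted p = 0.0445), a call lost without *db/db* mouse 1. All 8 β-cell markers were above the floor in every library. Their summed level was 225000 and 296000 CPM in KO_db/db, 200000 and 224000 CPM in *db/db*, and 391000 to 439000 CPM in *db/+*. The KO_db/db libraries stood apart in RNA of acinar cells, the enzyme-secreting cells of the pancreas: 23 acinar markers summed to 140000 CPM in mouse 1 and 11700 CPM in mouse 2, against 80.6 to 404 CPM in the other libraries. Replicate libraries differed by more than sampling noise. The labels name 1 mouse per library, and with 2 or 3 mice a group an exact two-sided permutation test cannot go below p = 0.2 for 2 against 3 or p = 0.333 for 2 against 2, so the tests are those of the fit across all genes.

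In β-cells of *db/db* mice most of these receptors stood below the lean level and 2 stood above it. *Glp1r*, *Gipr*, *Ffar1*, *Adra2a*, *Chrm3* and *Galr1* fell, *Gcgr* and *Ptger3* rose, and *Gpr119* and *Sstr3* did not pass the test. The count was 8 of 10 receptors at an adjusted p under 0.05, where 37.8% of the 13406 genes tested passed (19.9% higher and 18.0% lower). The median log2 fold change was −0.60 over the receptors and 0.01 over all genes tested. The split depends on the scaling between libraries, which is TMM unless stated. Scaled to the plain total count, the median of all genes moved to 0.50 and the calls over all genes went from 2662 higher and 2407 lower to 5971 higher and 801 lower. Among the receptors *Gcgr*, *Sstr3* and *Ptger3* were then called higher and *Gipr* lower, where 50.5% of all genes passed. The insulin genes *Ins1* and *Ins2* took 32.2 to 36.1% of all counts in *db/+* and 21.8 to 24.4% in the other libraries. With these 2 genes left out of the total the median was 0.27, and *Gcgr* and *Ptger3* were called higher and *Gipr* and *Chrm3* lower, against 40.3% of all genes. *Gipr*, *Gcgr* and *Ptger3* were therefore called in the same direction under all 3 scalings. In bulk RNA of sorted cells, fewer cells of a type and less RNA per cell cannot be told apart.

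**Figure D1:**
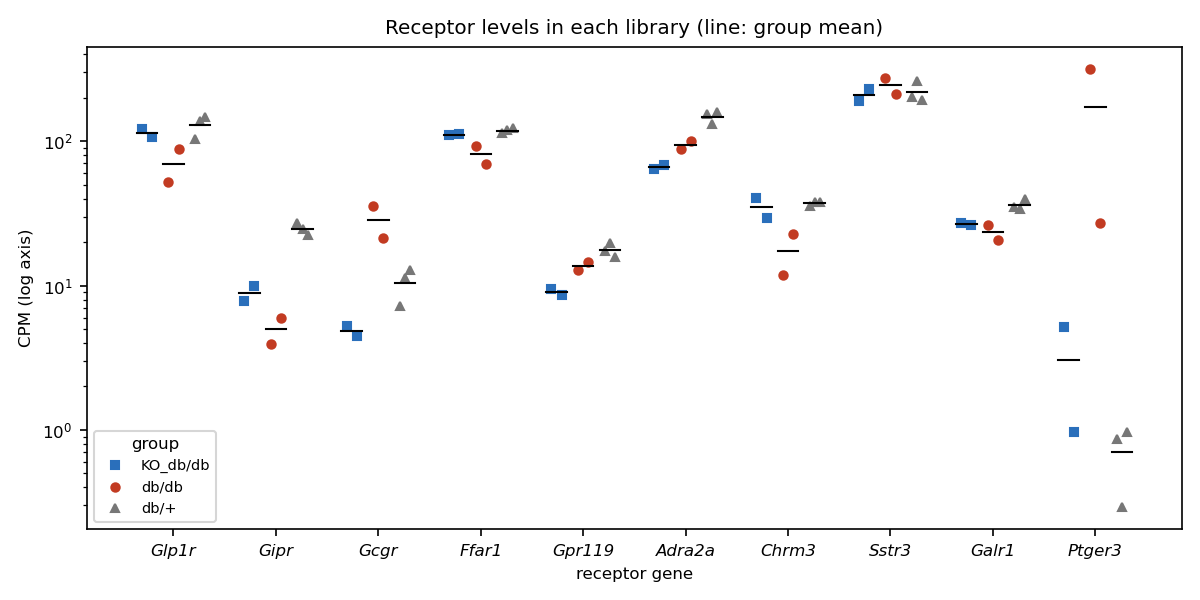
Level of each receptor gene in each of the 7 libraries, in CPM scaled by the trimmed mean of M values (TMM) on a log axis; squares, circles and triangles are KO_db/db, db/db and db/+ mice and the black line is the group mean. Gipr lies between 22.3 and 27 CPM in the 3 db/+ mice and between 3.96 and 10 CPM in the other 4 libraries, and Ptger3 spans 27.1 to 316 CPM in db/db against 0.292 to 0.970 CPM in db/+.

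The incretin receptors were both lower in *db/db* than in *db/+*. *Glp1r*, the GLP-1 receptor gene (GRCm38 chr17:30901817-30940791, plus strand), was at 121 and 106 CPM in KO_db/db, 51.7 and 87.9 CPM in *db/db*, and 104, 137 and 146 CPM in *db/+*. Both *db/db* mice were below all 5 others, while KO_db/db and *db/+* overlapped. *Glp1r* fell 1.86-fold in *db/db* against *db/+* (log2 −0.90 ± 0.25 SE, 95% interval −1.50 to −0.30, adjusted p = 0.0314). The call was lost without *db/db* mouse 1, where the log2 difference was −0.57, without *db/+* mouse 2 or 3, and under both unscaled totals, and 8 of 13 alternatives kept it (adjusted p 0.00212 to 0.227). Reads of *Glp1r* and of 2 noncoding genes on its opposite strand may share this locus, and the strandedness of the counting is not given in the sources used here.

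*Gipr*, the GIP receptor gene (chr7:19156061-19166127, minus strand), was at 7.76 and 10 CPM in KO_db/db, 3.96 and 5.98 CPM in *db/db*, and 27, 24.7 and 22.3 CPM in *db/+*. The groups did not overlap: *db/db* was lowest, KO_db/db between, and *db/+* highest. *Gipr* fell 4.98-fold in *db/db* against *db/+* (log2 −2.32 ± 0.22 SE, adjusted p = 0.000911). It also fell 2.75-fold in KO_db/db against *db/+* (log2 −1.46 ± 0.16 SE, adjusted p = 0.00141). Each of the 13 alternatives kept both calls. The 4 δ-cell markers, of the islet's somatostatin cells, were all above the floor in every library, and their sum was also lowest in *db/db*, at 169 and 87.4 CPM, against 653 and 520 CPM in KO_db/db and 381 to 2330 CPM in *db/+*. Nearly all of each sum was *Sst*, the somatostatin gene, at 162 and 82.5 CPM in *db/db*, 631 and 500 CPM in KO_db/db and 367 to 2270 CPM in *db/+*. The part of δ-cells in the incretin receptor levels was not tested.

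*Gcgr*, the glucagon receptor gene (chr11:120530699-120538986, plus strand), moved opposite to the incretin receptors in *db/db* against *db/+*. Its level was 5.26 and 4.44 CPM in KO_db/db, 35.4 and 21.4 CPM in *db/db*, and 7.21, 11.3 and 12.8 CPM in *db/+*. Both *db/db* mice were above all others and both KO_db/db mice below all others. *Gcgr* rose 2.69-fold in *db/db* against *db/+* (log2 1.43 ± 0.29 SE, adjusted p = 0.0105), and all 13 alternatives kept the call. It fell 2.15-fold in KO_db/db against *db/+* (log2 −1.11 ± 0.27 SE, adjusted p = 0.02), a call lost without KO_db/db mouse 1, without KO_db/db mouse 2 and without *db/+* mouse 2 (adjusted p 0.00174 to 0.0878 over 13 alternatives). Of the 6 α-cell markers, of the islet's glucagon cells, 5 or 6 were above the floor in every library, and they summed to 2530 and 2090 CPM in *db/db*, 1650 and 1180 CPM in KO_db/db, and 1070 to 1700 CPM in *db/+*. The high *db/db* sum was that of *Ttr*, at 1910 and 1720 CPM against 504 to 679 CPM elsewhere, while *Gcg*, the glucagon gene, was at 603 and 349 CPM in *db/db* and 381 to 1180 CPM elsewhere. The span of an antisense gene, *Gm11789*, overlaps that of *Gcgr*. Overlap of their exons was not examined, so whether any reads could be shared is not known.

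*Glp1r* and *Gcgr* were called in opposite directions in *db/db* against *db/+* under TMM. The stretches of sequence just upstream of their starts are shown 5′ to 3′ on the strand of the gene, from RefSeq on GRCm38.p6. They cover chr17:30901617-30901816 (200 bases) and chr11:120530477-120530698 (222 bases). Capitals mark GC boxes (GGGCGG on either strand), the letters bound by Sp1-type factors.
Glp1r: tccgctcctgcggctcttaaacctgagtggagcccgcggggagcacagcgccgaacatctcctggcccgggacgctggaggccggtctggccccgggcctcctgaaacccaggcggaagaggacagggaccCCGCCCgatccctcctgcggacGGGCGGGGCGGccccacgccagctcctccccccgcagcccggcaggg
Gcgr: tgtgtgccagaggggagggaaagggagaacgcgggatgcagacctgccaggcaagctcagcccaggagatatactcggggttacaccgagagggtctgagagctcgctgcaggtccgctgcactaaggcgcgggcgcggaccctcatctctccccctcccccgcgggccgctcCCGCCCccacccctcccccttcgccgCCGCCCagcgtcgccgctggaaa
*Glp1r* held 3 such matches, of which a pair overlapped, and *Gcgr* held 2.

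Of the lipid receptors, the fatty acid receptor gene fell in *db/db* and *Gpr119* was lowest in the knockout. *Ffar1* (chr7:30857390-30861564, minus strand) was at 110 and 112 CPM in KO_db/db, 92.0 and 69.9 CPM in *db/db*, and 113, 119 and 123 CPM in *db/+*. Only the *db/db* mice were clearly lower, with KO_db/db just under the *db/+* range. *Ffar1* fell 1.47-fold in *db/db* against *db/+* (log2 −0.56 ± 0.14 SE, 95% interval −0.89 to −0.23, adjusted p = 0.0205). The call was lost without *db/db* mouse 2, where the log2 difference was −0.38, without each *db/+* mouse, and under both unscaled totals (adjusted p 0.00225 to 0.692 over 13 alternatives). KO_db/db differed from *db/+* by log2 −0.08, with an interval of −0.29 to 0.12. The stretch upstream of *Ffar1*, chr7:30861565-30861720 on the minus strand (156 bases), held the letters of a Maf motif (TGCTGAC on either strand, in capitals), the motif of the β-cell factor MAFA.
Ffar1: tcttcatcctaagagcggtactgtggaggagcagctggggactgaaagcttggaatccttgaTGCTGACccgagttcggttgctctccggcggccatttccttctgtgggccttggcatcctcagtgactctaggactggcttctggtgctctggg

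*Gpr119*, whose product binds fatty acid amides and raises cAMP (chrX:48667979-48674478, minus strand), was at 9.44 and 8.59 CPM in KO_db/db, 12.8 and 14.6 CPM in *db/db*, and 17.4, 19.8 and 15.7 CPM in *db/+*. The groups did not overlap and KO_db/db was lowest. *Gpr119* fell 1.95-fold in KO_db/db against *db/+* (log2 −0.96 ± 0.15 SE, adjusted p = 0.00428), and all 13 alternatives kept the call. The difference of *db/db* from *db/+* did not pass the test (log2 −0.38, 95% interval −0.75 to 0.00, adjusted p = 0.104), and its sign turned, to 0.12, with the total count unscaled. The gene is X-linked, and Y-linked transcripts summed to 101 CPM in *db/+* mouse 3 against 0.717 to 2.88 CPM in the other 6 libraries, so the animals were not all of 1 sex. *db/+* mouse 3 had the lowest *Gpr119* of its group, and the part of sex in the level was not tested.

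The receptors that restrain secretion did not move together. *Adra2a*, the α2A-adrenergic receptor gene through which adrenaline inhibits the β-cell (chr19:54044151-54048982, plus strand), was at 64.2 and 68.3 CPM in KO_db/db, 88.5 and 99.6 CPM in *db/db*, and 153, 131 and 158 CPM in *db/+*. The 3 groups were apart, with KO_db/db lowest. *Adra2a* fell 1.58-fold in *db/db* against *db/+* (log2 −0.66 ± 0.13 SE, adjusted p = 0.00884). It fell 2.21-fold in KO_db/db against *db/+* (log2 −1.15 ± 0.11 SE, adjusted p = 0.00106). The first call was lost under both unscaled totals, with log2 −0.17 on the plain total, and the second was kept by all 13 alternatives (adjusted p 4.65e-05 to 0.317 and 4.54e-18 to 0.0126).

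*Galr1*, a galanin receptor gene, was at 27.1 and 26.1 CPM in KO_db/db, 26.1 and 20.6 CPM in *db/db*, and 35.0, 34.0 and 39.8 CPM in *db/+*. Both obese groups were below the 3 lean mice and lay close to each other. *Galr1* fell 1.57-fold in *db/db* (log2 −0.65 ± 0.15 SE, adjusted p = 0.0151) and 1.35-fold in KO_db/db (log2 −0.44 ± 0.11 SE, adjusted p = 0.0209), each against *db/+*. The first call was lost without *db/db* mouse 2 and under both unscaled totals (adjusted p 0.00145 to 0.39 over 13 alternatives). The second was lost without either KO_db/db mouse, without *db/+* mouse 1 and under both unscaled totals (adjusted p 0.00883 to 0.406 over 13 alternatives).

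*Sstr3*, a somatostatin receptor gene (chr15:78537008-78544685, minus strand), was at 189 and 229 CPM in KO_db/db, 274 and 213 CPM in *db/db*, and 202, 260 and 194 CPM in *db/+*. All 3 groups overlapped and none of the comparisons passed the test. The log2 difference of *db/db* from *db/+* was 0.14 with a 95% interval of −0.27 to 0.55 (adjusted p = 0.545), and that of KO_db/db from *db/+* was −0.06 with an interval of −0.45 to 0.33 (adjusted p = 0.807). On the plain total *Sstr3* was called higher in *db/db*, at log2 0.63 (adjusted p 0.0202 to 0.873 over 13 alternatives).

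*Chrm3*, the gene of the muscarinic receptor through which vagal acetylcholine stimulates secretion (chr13:9875486-10360847, minus strand), was at 40.5 and 29.3 CPM in KO_db/db, 11.8 and 22.8 CPM in *db/db*, and 35.6, 37.8 and 37.8 CPM in *db/+*. Both *db/db* mice were below all others, and KO_db/db overlapped *db/+*. *Chrm3* fell 2.16-fold in *db/db* against *db/+* (log2 −1.11 ± 0.27 SE, adjusted p = 0.0177). The call was lost on the plain total, at log2 −0.61 (adjusted p 0.000363 to 0.0953 over 13 alternatives). KO_db/db differed from *db/+* by log2 −0.08 with an interval of −0.44 to 0.27. The gene overlaps 6 other annotated genes, 2 of them on the opposite strand.

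*Ptger3*, the gene of the prostaglandin E2 receptor EP3 (chr3:157566892-157645888, plus strand), was low in lean mice and stood at high and unequal levels in *db/db*. It was at 5.17 and 0.971 CPM in KO_db/db, 316 and 27.1 CPM in *db/db*, and 0.860, 0.292 and 0.970 CPM in *db/+*. The counts behind these values were 126 and 40, 10752 and 1135, and 21, 8 and 28. Both *db/db* mice were above all others but differed 11.6-fold from each other. *Ptger3* rose 238-fold in *db/db* against *db/+* (log2 7.90 ± 1.12 SE, 95% interval 5.24 to 10.55, adjusted p = 0.00277). Without *db/db* mouse 1 the log2 difference was 5.24, and without mouse 2 it was 8.78, and all 13 alternatives kept the call. The 7 macrophage markers, of another cell that makes and senses prostaglandin E2, were all above the floor in *db/db*, against 4 in each *db/+* library and 3 and 5 in KO_db/db. They summed to 73.8 and 55.9 CPM in *db/db*, 32.8 to 57 CPM in *db/+* and 21.6 and 33.4 CPM in KO_db/db. Nearly all of each sum was *C1qa*, at 71.3 and 53.5 CPM in *db/db*, 31.9 to 54.6 CPM in *db/+* and 20.9 and 32 CPM in KO_db/db. Their part was not tested. The 250 bases upstream of the RefSeq start, chr3:157566626-157566875, are shown because this gene had the largest fold change of the 10 in *db/db* against *db/+*, with GC boxes in capitals.
Ptger3: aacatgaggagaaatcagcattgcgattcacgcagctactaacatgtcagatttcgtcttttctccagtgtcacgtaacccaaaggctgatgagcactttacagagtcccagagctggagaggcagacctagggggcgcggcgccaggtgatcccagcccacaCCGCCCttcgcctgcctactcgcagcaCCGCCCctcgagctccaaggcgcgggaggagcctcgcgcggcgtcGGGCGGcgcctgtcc
It held 3 GC boxes.

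**Figure D2:**
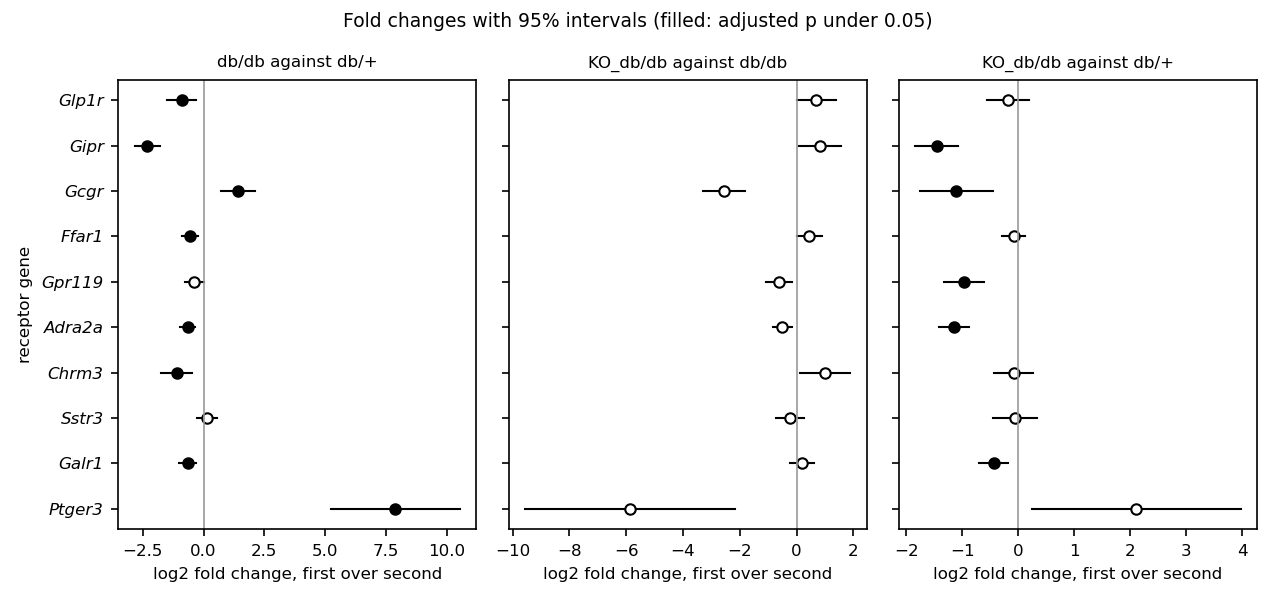
Log2 fold change (x axis, first group over second, its range set separately in each panel) of each receptor in the 3 comparisons, from edgeR; lines are 95% intervals and filled points have an adjusted p under 0.05. In db/db against db/+ 8 points are filled, in KO_db/db against db/db none, and in KO_db/db against db/+ 5, all of them lower.

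In KO_db/db against *db/db*, the comparison of the *Aldh1a3* deletion within the diabetic background, none of the 10 receptors passed the test, where 0.319% of 13486 genes did. At an unadjusted p under 0.05 stood 8 of the 10, and 2814 of all genes. *Gcgr* had the largest difference relative to its error, 5.88-fold lower (log2 −2.56 ± 0.30 SE, adjusted p = 0.0585). *Ptger3* was 58.5-fold lower in the estimate (log2 −5.87 ± 1.46 SE, adjusted p = 0.135), and log2 −3.20 without *db/db* mouse 1. The mean of *Glp1r* was 114 CPM in KO_db/db against 69.8 CPM in *db/db* (log2 0.70, 95% interval 0.02 to 1.38, adjusted p = 0.233). *Chrm3* had a mean of 34.9 CPM against 17.3 CPM (log2 1.01, interval 0.12 to 1.90, adjusted p = 0.207). *Gipr* had a mean of 8.88 CPM against 4.97 CPM (log2 0.83, interval 0.09 to 1.57, adjusted p = 0.209). *Ffar1* had a log2 difference of 0.45 (interval 0.02 to 0.89). *Gpr119* had a log2 difference of −0.61 (interval −1.06 to −0.15, adjusted p = 0.167). For *Adra2a* it was −0.51 (interval −0.85 to −0.17, adjusted p = 0.144). The intervals of the remaining receptors held 0, at log2 −0.22 for *Sstr3* (−0.718 to 0.275) and 0.19 for *Galr1* (−0.247 to 0.625).

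How many receptors were called here depended on the fit. DESeq2 called 4, with *Chrm3* higher and *Gcgr*, *Adra2a* and *Ptger3* lower, where it called 10% of genes. Without the filter on low counts edgeR called 4, with *Glp1r* and *Chrm3* higher and *Gcgr* and *Ptger3* lower, against 8% of genes. With all 7 libraries in 1 fit, *Gcgr* (adjusted p = 0.0133) and *Ptger3* (adjusted p = 0.0392) were called, against 5.93% of genes. The adjusted p over the 12 alternatives ranged from 5.84e-14 to 0.0848 for *Gcgr* and from 7.43e-59 to 0.267 for *Ptger3*, and each was called in 6 of the 12. Without *db/db* mouse 2 *Gcgr* alone was called. *Gipr*, *Ffar1*, *Gpr119*, *Sstr3* and *Galr1* were called in none of the 12 (lowest adjusted p 0.0695).

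In KO_db/db against lean *db/+* mice, 5 of the 10 receptors fell and none rose: *Gipr*, *Gcgr*, *Gpr119*, *Adra2a* and *Galr1*. Over all 13228 genes 38.4% passed the test, 20.5% higher and 17.9% lower. The median log2 fold change was −0.31 over the receptors and −0.0034 over all genes. *Glp1r* (log2 −0.18, interval −0.56 to 0.20), *Ffar1*, *Chrm3* and *Sstr3* did not pass the test, and their intervals together spanned −0.56 to 0.33. *Ptger3* had an estimate of log2 2.10 ± 0.78 SE (adjusted p = 0.0736), which was 0.46 without KO_db/db mouse 1, the library with the most acinar RNA, and 2.86 without mouse 2 (adjusted p 0.021 to 0.717 over 13 alternatives). The median log2 fold change over the receptors was −0.40 without KO_db/db mouse 1 and −0.32 without mouse 2. The *db/db* and KO_db/db comparisons share the 3 *db/+* mice. Side by side, the log2 differences from *db/+* in *db/db* and KO_db/db were −2.32 and −1.46 for *Gipr*, 1.43 and −1.11 for *Gcgr*, −0.66 and −1.15 for *Adra2a*, and −0.65 and −0.44 for *Galr1*.

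**Figure D3:**
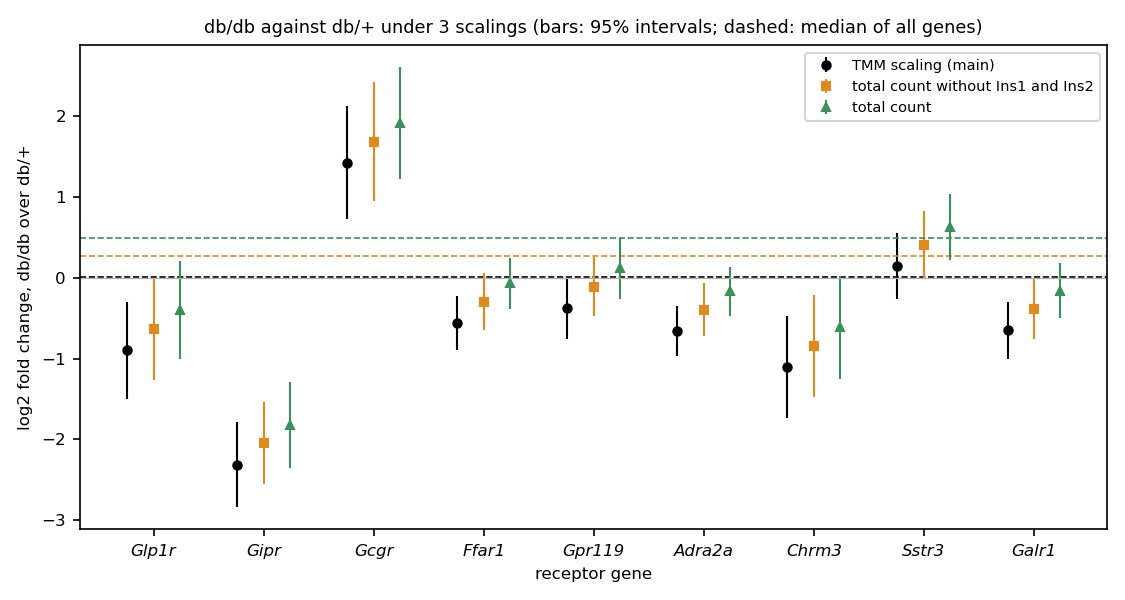
Log2 fold change of 9 receptors in db/db against db/+ (y axis) with 95% intervals, under TMM scaling, under the total count without Ins1 and Ins2, and under the plain total count; dashed lines are the median of all genes under each, at 0.01, 0.27 and 0.50. All points move up together with the median, so Gipr stays lowest and Gcgr highest, while Gpr119 crosses 0; Ptger3 is left out because its value, 7.90, would compress the axis.

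Levels of different receptors were set beside each other per kilobase of annotated exon. *Sstr3* was first in each group, with a mean of 48.5 CPM per kb in KO_db/db, 56.4 in *db/db* and 50.6 in *db/+*. In *db/+* it was followed by *Adra2a* at 30.5 ± 2.89, *Ffar1* at 28.3 ± 1.26 and *Glp1r* at 22.2 ± 3.78 CPM per kb (SD, n = 3). The ranges of *Adra2a* and *Ffar1* overlapped, and those of *Ffar1* and *Glp1r* did not. Next came *Galr1* at 12.1, *Gpr119* at 7.78, *Gipr* at 7.08 and *Chrm3* at 5.93 CPM per kb, where *Gpr119* and *Gipr* overlapped. *Gcgr* at 3.99 and *Ptger3* at 0.124 CPM per kb were last. In *db/db* *Gcgr* had rank 6 against rank 9 in *db/+*, *Ptger3* had rank 2 with a spread of 4.77 to 55.5 CPM per kb, and *Gipr* had rank 10 at 1.43 CPM per kb. These ranks are of group means of scaled levels, and only the order within a single library is free of the scaling between libraries. That order can differ from the ranks. The lower *db/db* library of *Ptger3*, at 4.77 CPM per kb, was below both *db/db* libraries of *Galr1*, at 6.88 and 8.74 CPM per kb.

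**Figure D4:**
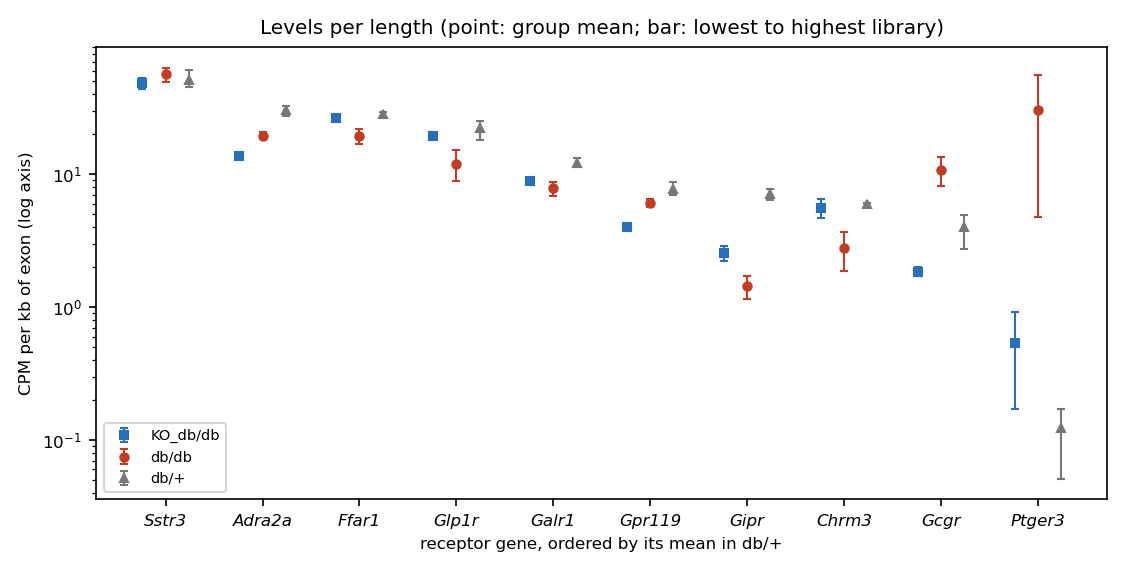
Level of each receptor per kilobase of exon (y axis, log scale) in the 3 groups, ordered by the db/+ mean; points are group means and bars run from the lowest to the highest library. Sstr3 is first in all 3 groups at 48.5 to 56.4 CPM per kb, and the db/db point of Ptger3, 30.1 CPM per kb, has the widest bar.

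Promoter windows of 300 bases (250 before and 50 after the RefSeq start) were given for 8 of the 10 receptors; *Gipr* and *Galr1* had no entry. None of the 8 held a cAMP response element (TGACGTCA), found in 1.88% of all 27025 such windows, or a retinoic acid response element (AGGTCA, then NNNNN, then AGGTCA again), found in 2 of them. The Maf motif shown for *Ffar1* occurred in no other receptor window and in 4.58% of all windows. GC boxes were in the windows of 4 of the 8, *Glp1r*, *Gcgr*, *Adra2a* and *Ptger3*, and in 35.9% of all windows. The 4 include receptors that fell and receptors that rose in *db/db* against *db/+* under TMM.

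The genes whose log2 CPM correlated best with each receptor over the 7 libraries were read from the 7811 genes with a mean of at least 10 CPM. The libraries share depth, scaling and group differences, so these are descriptions. For *Glp1r* they were *Jazf1* and *Rapgef4* (r = 0.992 each) and *Zfand6* (r = 0.981); *Rapgef4* encodes EPAC2, a cAMP sensor of the secretory machinery. For *Gipr* they were *Idh2* (r = 0.998), *Akr1c19* and *Tmem175*. *Gcgr* was matched less closely, by *Sec11c* (r = 0.969), *Mal2* and *Alg5*; *Sec11c* and *Alg5* act in protein processing of the endoplasmic reticulum. *Ffar1* was nearest to *Anapc5*, *Robo2* and *Ugp2*, *Gpr119* to *Srd5a3* and *Pcmt1*, and *Adra2a* to *Polr2g* and *Eva1b*. *Chrm3* was nearest to *Selenoo*, *Thada* and *Ppm1l*, *Sstr3* to *Gabpa*, *Got1* and *Acp1*, and *Galr1* to *Ift22*, *Copz1* and *Guk1*. For *Ptger3* they were *C1rl* (r = 0.993), *Kcnab3* and *Pwwp3b*.

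Downstream of the receptors, 9 lists held 169 genes of the same signalling, of which 125 were tested in *db/db* against *db/+*. Of these 43 rose and 23 fell, 52.8% of those tested against 37.8% of all genes (19.9% higher and 18.0% lower), with a median log2 fold change of 0.24; on the plain total count 68 rose and 8 fell, and without *Ins1* and *Ins2* 57 of 124 rose and 14 fell. Among the 11 tested subtypes of the same receptor families 3 rose and 1 fell (4 and 1 on the plain total), 36.4%, near the 37.8% of all genes. *Ptger4*, the Gs-coupled receptor for prostaglandin E2, was at 6.46 and 2.94 CPM in *db/db*, 2.46 and 2.26 CPM in KO_db/db and 0.0819 to 0.277 CPM in *db/+*. It rose in *db/db* (log2 4.46 ± 0.57 SE, adjusted p = 0.002) and in KO_db/db (log2 3.49 ± 0.55 SE, adjusted p = 0.00456), and neither group overlapped *db/+*. In *db/+* mouse 1 *Ptger4* was below the floor of 0.123 CPM, so both folds rest on a lean level near the floor. The vasoactive intestinal peptide receptors went opposite ways in *db/db*, *Vipr2* up (log2 1.69 ± 0.29 SE) and *Vipr1* down (log2 −1.10 ± 0.14 SE). Among 15 other islet receptors 2 rose and 3 fell, 33.3% against 37.8% of all genes, and on the plain total the balance turned to 8 higher and 2 lower. *Gabbr2*, a GABA-B receptor subunit gene, rose (log2 1.64 ± 0.17 SE) and *Adora1*, the adenosine A1 receptor gene, fell (log2 −1.69 ± 0.21 SE). *Cnr1*, the cannabinoid receptor gene, was at 0 and 0.239 CPM in *db/db* against 2.81 to 4.92 CPM in *db/+* and fell, with log2 −4.77 ± 0.91 SE; without *db/db* mouse 2 its group is at 0 CPM and no fold is given. *Casr*, the calcium-sensing receptor gene, rose by log2 0.71, a call lost without either *db/db* mouse, *db/+* mouse 1 or *db/+* mouse 2.

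The G protein subunits split, with 7 of 22 higher and 6 lower in *db/db* (on the plain total 12 and 1), 59.1% against 37.8% of all genes. *Gna14*, a Gq-class α subunit gene, rose, with 22.5 and 13.9 CPM in *db/db* against 0.985 to 2.22 CPM in *db/+* (log2 3.62 ± 0.38 SE, adjusted p = 0.00114). *Gng2* rose (log2 2.33 ± 0.32 SE) and *Gng4* and *Gng10* fell (log2 −1.12 ± 0.12 and −0.74 ± 0.14 SE); the call of *Gng10* was lost on the plain total. Of 5 adenylyl cyclases tested, the enzymes that make cAMP, 2 rose and none fell, 40% against 37.8% of all genes, and on the plain total all 5 were called higher. *Adcy1* was at 4.29 and 5.50 CPM in *db/db* against 0.123 to 0.255 CPM in *db/+* (log2 4.69 ± 0.40 SE), and *Adcy2* at 2.76 and 4.02 CPM against 0.0693 to 0.292 CPM (log2 4.24 ± 0.56 SE). These folds also rest on lean levels near the floor. *Adcy1* was at the floor in *db/+* mouse 1, and *Adcy2* below it in *db/+* mouse 3. The enzymes that break cAMP and cGMP down had 7 of 16 higher and 2 lower (9 and 0 on the plain total), 56.2% against 37.8% of all genes. *Pde3a* rose (log2 2.89 ± 0.24 SE), as did *Pde11a*, at 2.85 and 3.56 CPM against 0 to 0.450 CPM, although its call was lost without *db/db* mouse 2. *Pde3b*, a phosphodiesterase that acts on β-cell cAMP, fell (log2 −0.86 ± 0.15 SE), a call lost on the plain total. *Pde8a* fell by 0.35 on the log2 scale, turned to 0.14 on the plain total and lost its call in 4 of the 5 fits without 1 library, all but that without *db/db* mouse 2.

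Among 19 cAMP effectors 7 rose and 8 fell (9 and 2 on the plain total), 78.9% against 37.8% of all genes. *Sik1*, a kinase gene induced by cAMP, rose, with 12.3 and 8.34 CPM in *db/db* against 0.511 to 1.42 CPM in *db/+* (log2 3.41 ± 0.41 SE, adjusted p = 0.00165). *Rapgef3*, the gene of the cAMP sensor EPAC1, rose (log2 4.23), with 7.96 and 3.70 CPM against 0 to 0.614 CPM, a call lost without *db/db* mouse 1. *Prkar2b*, a regulatory subunit gene of protein kinase A, and *Crem*, a cAMP-responsive transcription factor gene, fell (log2 −1.33 ± 0.15 and −1.06 ± 0.22 SE), the latter call lost on the plain total. Of 10 Gq effectors 3 rose and none fell (6 and 0 on the plain total), 30% against 37.8% of all genes, led by *Prkcd* (log2 1.06 ± 0.15 SE) and *Plcb1* (log2 1.00 ± 0.13 SE). The receptor regulators, which quench G proteins or desensitise receptors, had the most genes called higher of the 9 lists, with 11 of 20 higher, 1 lower and a median of 0.96, where 19.9% of all genes were called higher (14 and 1 on the plain total); without single libraries 7 to 10 were higher, the lowest without *db/+* mouse 1. *Rgs9* rose (log2 2.27 ± 0.18 SE), and *Rgs8* rose (log2 2.94), a call lost without *db/db* mouse 1. *Grk5*, a receptor kinase gene, was the exception, at 8.19 and 8.82 CPM in *db/db* against 30.0 to 33.3 CPM in *db/+* (log2 −1.90 ± 0.13 SE, adjusted p = 0.000447).

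Of the 7 ligand genes and ligand enzymes tested, 1 rose and 2 fell, 42.9% against 37.8% of all genes (1 and 1 on the plain total). *Ache*, the acetylcholinesterase gene, was at 77.7 and 63.4 CPM in *db/db*, 13.6 and 9.35 CPM in KO_db/db, and 2.44 to 4.22 CPM in *db/+*. The 3 groups were far apart. *Ache* rose in *db/db* against *db/+* (log2 4.39 ± 0.23 SE, adjusted p = 0.000243). It was the only one of 126 signalling genes to pass in KO_db/db against *db/db* (log2 −2.63 ± 0.24 SE, adjusted p = 0.0404), where 2 genes were called with the acinar markers left out of the counts, 26 by DESeq2 and 18 with all 7 libraries in 1 fit; the call of *Ache* was lost without *db/db* mouse 1. *Dpp4*, whose product degrades both incretins, fell in *db/db* (log2 −0.76 ± 0.11 SE), a call lost on the plain total. *Sst*, the somatostatin gene and also the defining δ-cell marker, fell (log2 −3.21 ± 0.82 SE), a call lost without either *db/db* mouse.

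**Figure D5:**
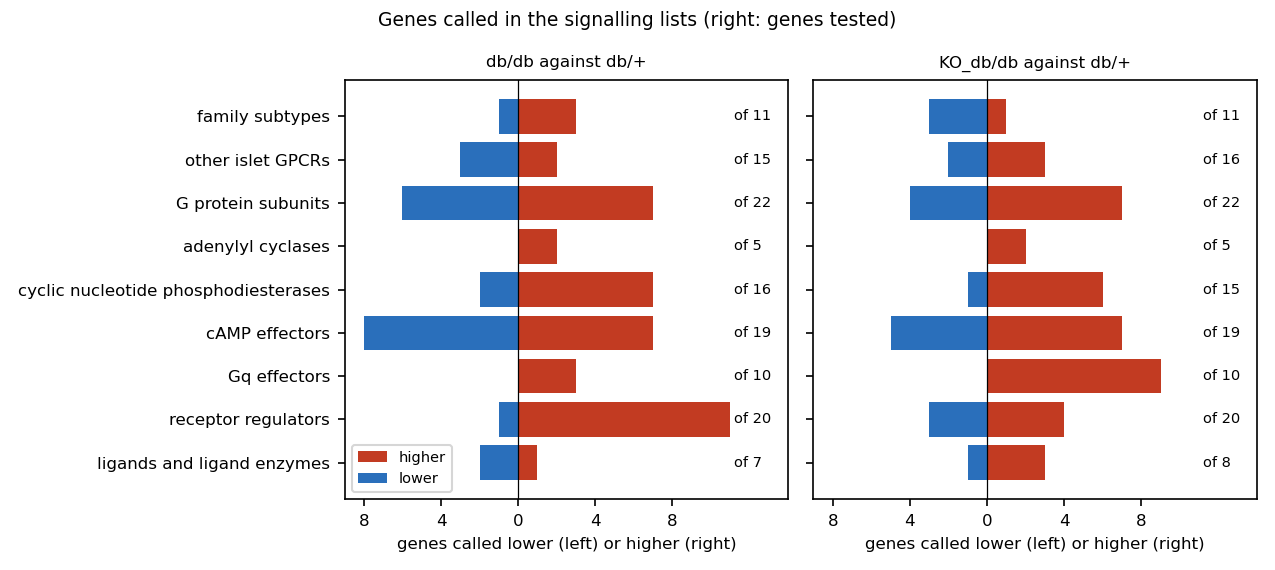
Number of genes called lower (blue, left of 0) or higher (red, right of 0) in each of 9 signalling lists, in db/db against db/+ (left panel) and KO_db/db against db/+ (right panel), with the number tested at the right. The Gq effectors go from 3 to 9 of 10 higher between the panels, and the receptor regulators from 11 to 4 of 20. That difference in counts was not tested, and both panels share the 3 db/+ mice. In KO_db/db against db/db 0 of 10 and 0 of 20 were called, with medians of log2 0.63 and −0.34, where 0.319% of all genes passed. DESeq2 called 5 Gq effectors higher there, and 1 regulator higher and 5 lower, where it called 10% of genes.

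In KO_db/db against *db/+* 42 of 126 signalling genes rose and 19 fell, with a median of 0.35. That is 48.4% against 38.4% of all genes (20.5% higher and 17.9% lower). On the plain total 48 rose and 6 fell, where 2971 of all 13228 genes were called higher and 650 lower. The median was 0.32 without KO_db/db mouse 1 and 0.30 without mouse 2. Without *db/+* mouse 1, 32 of 125 rose and 11 fell, where 26.2% of all genes were called. The Gq effectors, which turn receptor signals into calcium release and protein kinase C activity, had 9 of 10 higher, where 20.5% of all genes were called higher, a median of 0.96, and 8 to 10 higher when single libraries were left out. *Itpr3*, an inositol trisphosphate receptor gene, was at 138 and 114 CPM in KO_db/db, 34.7 and 52.8 CPM in *db/db*, and 42.8 to 48.1 CPM in *db/+* (log2 1.49 ± 0.11 SE against *db/+*, adjusted p = 0.000663). Both KO_db/db mice were above all 5 others. *Plcb1*, a phospholipase C gene, rose as well (log2 1.44 ± 0.12 SE). The acinar markers, at 140000 CPM in mouse 1 and 11700 CPM in mouse 2, are high in the same libraries, and the part of acinar RNA in this list was not tested.

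Among the other lists *Sik1* rose in KO_db/db (log2 3.46 ± 0.37 SE) and *Creb1*, the gene of the cAMP response element-binding protein, fell (log2 −1.18 ± 0.13 SE), as did *Crem* (log2 −0.94 ± 0.17 SE), while *Crtc3*, a coactivator gene, rose (log2 1.24 ± 0.16 SE). *Pde3a* rose (log2 2.59 ± 0.23 SE), as did *Pde4d* (log2 1.59), *Adcy1* (log2 2.59) and *Adcy2* (log2 2.53); each of the latter 3 lost its call without KO_db/db mouse 1, and *Adcy1* was then at 1.38. The adenylyl cyclases also lost their calls without other libraries, *Adcy1* when any single *db/+* mouse was left out and *Adcy2* without KO_db/db mouse 2, *db/+* mouse 1 or mouse 3. Receptor genes that rose included *Gabbr2* (log2 1.43 ± 0.15 SE), and those that fell *Ffar3*, a short-chain fatty acid receptor gene (log2 −1.30 ± 0.24 SE). *Gna12* and *Gng2* rose (log2 1.06 ± 0.12 and 1.67 ± 0.25 SE). *Rgs12* rose (log2 1.39 ± 0.22 SE) and *Rgs16* fell (log2 −1.37 ± 0.26 SE), the latter at 10.5 and 18.3 CPM against 32.5 to 45.6 CPM in *db/+*, while it was at 184 and 75.2 CPM in *db/db*. *Dpp4* fell (log2 −0.76 ± 0.17 SE), a call lost on the plain total. *Cckar*, the cholecystokinin A receptor gene, and *Gal*, the galanin gene, were high where the acinar markers were, and the part of acinar RNA was not tested. *Cckar* was at 18.9 and 2.72 CPM in KO_db/db and at 0 to 0.382 CPM elsewhere, and *Gal* at 16.7 and 1.63 CPM against 0.0717 to 0.206 CPM; both were highest in KO_db/db mouse 1. *Gng10* fell (log2 −0.71 ± 0.11 SE), as did *Gnai3* (log2 −0.65), and *Arrb1*, a β-arrestin gene, rose (log2 1.54); both latter calls were lost without KO_db/db mouse 1. *Ffar2*, *P2ry1*, *Cnr1*, *Pde3b* and *Rgs4* were called lower with log2 values of −1.96 to −0.34, and each lost its call in at least 2 of the 5 fits without 1 library. Of the 29 genes named by the rule in this comparison, 19 kept their call in all 5 of those fits, as did 23 of 29 in *db/db* against *db/+*.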

How the data were processed

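RNA was sequenced from sorted β-cells of 7 mice (2 KO_db/db, 2 *db/db*, 3 *db/+*). The authors prepared poly(A) libraries, demultiplexed with bcl2fastq 2.19 and pseudoaligned with kallisto 0.44.0 to GRCm38; the deposited table holds estimated counts per gene, all whole numbers. The annotation release, strandedness and the gate of these sorts are not given in the sources used here. Groups came from the labels; 0 sample columns were left unused, and 14637 of 35013 genes were at 0 in all libraries.

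For every comparison only the libraries of the 2 groups entered the fit, made with edgeR 4.0.16 (R 4.3.3; TMM, filterByExpr with a minimum count of 10, quasi-likelihood test), with Benjamini-Hochberg adjustment over all genes tested and a threshold of 0.05. Each test set the difference between groups against the variation between mice, which was estimated in part across genes. CPM were scaled by TMM over all 7 libraries. Exon lengths and positions were from GENCODE M21 (GRCm38), promoters from RefSeq (GRCm38.p6). The fit was tested on simulated data. Alternatives were DESeq2 1.42.0 (the tool of the study's methods), relative log expression scaling, no filter, all 7 libraries in 1 fit, the mouse number as a block, acinar markers left out, each library left out and, chosen after seeing the data, unscaled totals with and without *Ins1* and *Ins2*.

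The 10 receptors and the gene lists were chosen with earlier results of these data known. From each signalling list, up to 2 genes with the largest rise and up to 2 with the largest fall were named if they passed the test and averaged 1 CPM or more, and 3 genes most like each receptor, of which some are not reported here. Values named beyond this rule (*Ttr*, *Gcg*, *C1qa* and *Aldh1a3*) were chosen as markers or as the targeted gene, *Ttr*, *Gcg* and *C1qa* after their values were seen. Floors of 3 counts cover counting error only.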

Additional observations from a re-analysis of the deposited data

How the results depend on the processing

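Of the 10 receptors, 8 were called in *db/db* against *db/+* under TMM, and 4 on the plain total count and 4 with *Ins1* and *Ins2* left out of it; the cause was not tested. On the plain total *Gpr119* turned to 0.117 and *Pde8a* to 0.144 in *db/db* against *db/+* (log2), *Glp1r* to 0.025, *Ffar1* to 0.135, *Chrm3* to 0.104 and *Sstr3* to 0.177 in KO_db/db against *db/+*, and *Galr1* to −0.067 in KO_db/db against *db/db* (−0.047 without the insulin genes). The number of the 30 pairs of receptor and comparison whose groups did not overlap went from 25 to 16 on the plain total. No share over all genes is given beside it, so this count is not a result about the receptors.

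In KO_db/db against *db/db*, where edgeR called 0 receptors, 1 signalling gene and 43 genes in all, DESeq2 called 4, 26 and 1396, edgeR without the filter 4, 29 and 1570, and 1 fit of all 7 libraries 2, 18 and 818. The plain total gave 2, 22 and 1220, the total without insulin genes 2, 22 and 1261, and leaving out acinar markers 2 signalling genes. In KO_db/db against *db/+* the total without insulin genes called 3308 genes.

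Without single libraries, *db/db* against *db/+* gave 3331 to 4394 genes in all. KO_db/db against *db/db* gave 0 to 1 receptors, 0 to 7 signalling genes and 0 to 225 genes in all, the 0 without *db/db* mouse 1, where 1826 genes had an unadjusted p under 0.05. KO_db/db against *db/+* gave 3 to 5 receptors and 3060 to 4725 genes in all. *Sstr3* ranged from −0.046 to 0.308 in *db/db* against *db/+* and from −0.213 to 0.088 in KO_db/db against *db/+*, and *Chrm3* from −0.337 to 0.122 in the latter (log2). Where this left 1 library in a group, that library was assumed to vary like the others.

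Between mice of the same number, deviations from the group had correlations of −0.139 to 0.095. Within KO_db/db, and within *db/db*, the mice gave equal and opposite values, so few of the correlations were independent. For that reason they cannot decide whether the numbers pair the mice. With the mouse number as a replicate block, KO_db/db against *db/db* called 1 receptor, *Ptger3*, and 22 of 13486 genes in all. In *db/db* against *db/+* it called 8 receptors and 4516 of 13406 genes. In KO_db/db against *db/+* it called 4 receptors and 3786 of 13228 genes, and 5081 genes were called without the block. There *Gcgr* and *Galr1* lost their calls and *Ptger3* was called.

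With 2 mice against 2, the differences of *Glp1r*, *Gipr*, *Ffar1* and *Chrm3* between KO_db/db and *db/db* had 95% intervals above 0. Those of *Gcgr*, *Gpr119*, *Adra2a* and *Ptger3* had intervals below 0. None passed the adjustment over 13486 genes, of which 2814 had an unadjusted p under 0.05 in edgeR. The lowest receptor count, 8 for *Ptger3* in *db/+* mouse 2, is above the floor of 3 counts.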
